A study of Schizosaccharomyces pombe with 12 samples.

Results

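The amino acid and peptide permeases of the fission yeast *Schizosaccharomyces pombe* described here were chosen by gene name. Earlier results of these data were known when they were chosen. The names are *cat1*, *aat1*, *isp5*, *per1* and *put4*, which encode amino acid permeases, and *isp4* and *ptr2*, which encode peptide transporters. Of these 7 genes 6 had a probe set under their name, 1 each, among the 4880 probe sets of the table. The dipeptide transporter gene *ptr2* was not analysed here.

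Permeases are membrane proteins that carry amino acids or short peptides into the cell, where they serve protein synthesis or are broken down for nitrogen. In fission yeast the set of permeases is controlled by transcription and by trafficking to and from the plasma membrane. The Tsc1-Tsc2 complex, the GTPase Rhb1 and the kinase Tor2 (TORC1) act in this control, and the transcripts of several permeases are known to be raised when nitrogen is scarce or TORC1 is off.

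RNA from 4 groups of 3 samples went onto 12 arrays, all of the Affymetrix Yeast Genome 2.0 type: *set3Δ* with LatA, *set3Δ* with DMSO, wild type with LatA and wild type with DMSO. Set3p is the SET domain protein of a presumed histone deacetylase complex, LatA (Latrunculin A) is a sponge toxin that keeps actin from forming filaments, and DMSO is its solvent. Both strains carried *ura4-D18*, *leu1-32* and *ade6-216*, so they depend on uracil, leucine and adenine from the medium, and the mutant also carried *set3::KanMX*. The sample labels give no mating type, but the strains of these genotypes in the strain list of the study are h+ (*set3Δ*) and h- (wild type). Cultures grew at 30°C in the rich medium YES and were treated for 3 h with LatA, at 0.5 mM by the sample labels (a unit that the text of the study gives as µM), or with DMSO. The labels call the 3 arrays of a group biological replicates.

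The *set3* probe set read -2.59 to -1.97 on *set3Δ* arrays and 1.97 to 2.31 on wild-type arrays, on the log2 scale of the table. The M-cell transcripts *mat3-Mc* (-3.27 to -2.38 in *set3Δ*, 2.38 to 3.49 in wild type) and *mfm2* (-2.97 to -2.05 in *set3Δ*, 2.05 to 3.07 in wild type) separated the strains as well, while the P-cell transcript *map2* overlapped between them. The deletion and the mating type cannot be told apart in any comparison of the strains. Each value in the table is a log2 intensity relative to the median of that probe set over the 12 arrays, so a value of 1 is a doubling of that median, and levels of different genes cannot be ranked. Replicate arrays correlated at 0.25 to 0.51 in *set3Δ* with DMSO and at 0.61 to 0.90 in the other groups. As the values are relative to that median, these correlations also depend on how far a group lies from it. The median SD between replicates was 0.114 in *set3Δ* with DMSO and 0.106 in wild type with DMSO. By group, the SD between replicates had a median of 0.071 to 0.11 over all probe sets, while the median SD of the 6 permeases was 0.24 to 0.40. For *aat1*, *isp5* and *put4*, replicate 3 of *set3Δ* with LatA stood well above replicates 1 and 2, and results that rest on it are also given without it.

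LatA changed 3 of the 6 permease transcripts in wild type. *isp5* rose 3.58-fold, *per1* rose 1.90-fold and *aat1* fell 1.84-fold, each with an adjusted p below 0.05 in limma and a fold change above 1.5, the limits for differential expression used throughout. In the same comparison 14.5% of all probe sets were differentially expressed, 7.21% higher and 7.3% lower. The median difference of the 6 permeases was 0.36 on the log2 scale, against -0.034 over all probe sets. In *set3Δ*, 0 of the 6 passed in limma, and the median difference was -0.15, against -0.020 over all probe sets. At an unadjusted p below 0.05 in limma there were 2 of the 6, *aat1* and *per1*, and 1805 of all 4880 probe sets. Of all probe sets 3.61% passed (1.97% higher and 1.64% lower). That share rests on single arrays: the 176 probe sets behind it became 0 without replicate 1 or 2 of *set3Δ* with LatA, 107 without replicate 3 of that group and 18 without replicate 1 of *set3Δ* with DMSO. In bulk RNA, a change in the share of cells that express a gene and a change in its transcript per cell cannot be told apart.

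Between the strains, 1 of the 6 permeases passed with LatA and 0 with DMSO. With LatA, *isp5* was 3.60-fold lower in *set3Δ*, and 3.16% of all probe sets were differentially expressed, 1% higher and 2.15% lower. The 6 permeases had a median difference of -0.54 with LatA, against 0.019 over all probe sets. Of the 6, 5 were negative, *cat1* only just (-0.069), as were 2183 of all 4880 probe sets. With DMSO, *aat1* alone of the 6 reached an unadjusted p below 0.05 in limma, as did 1111 of all 4880 probe sets. Of all probe sets 0.123% were differentially expressed with DMSO. For the difference between the LatA responses (*set3Δ* minus wild type) 0 of the 6 passed in limma. At an unadjusted p below 0.05 in limma there were 1 of the 6, *isp5*, and 986 of all 4880 probe sets. Of all probe sets 0.0615% passed (0.0205% higher and 0.041% lower). The 3 probe sets behind this share became 260 without replicate 1 of wild type with DMSO, 25 without replicate 3 of *set3Δ* with LatA, and 0 to 5 without any other single array. The comparisons share groups: both LatA responses and both strain differences are drawn from the same 4 sets of arrays.

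**Figure D1:**
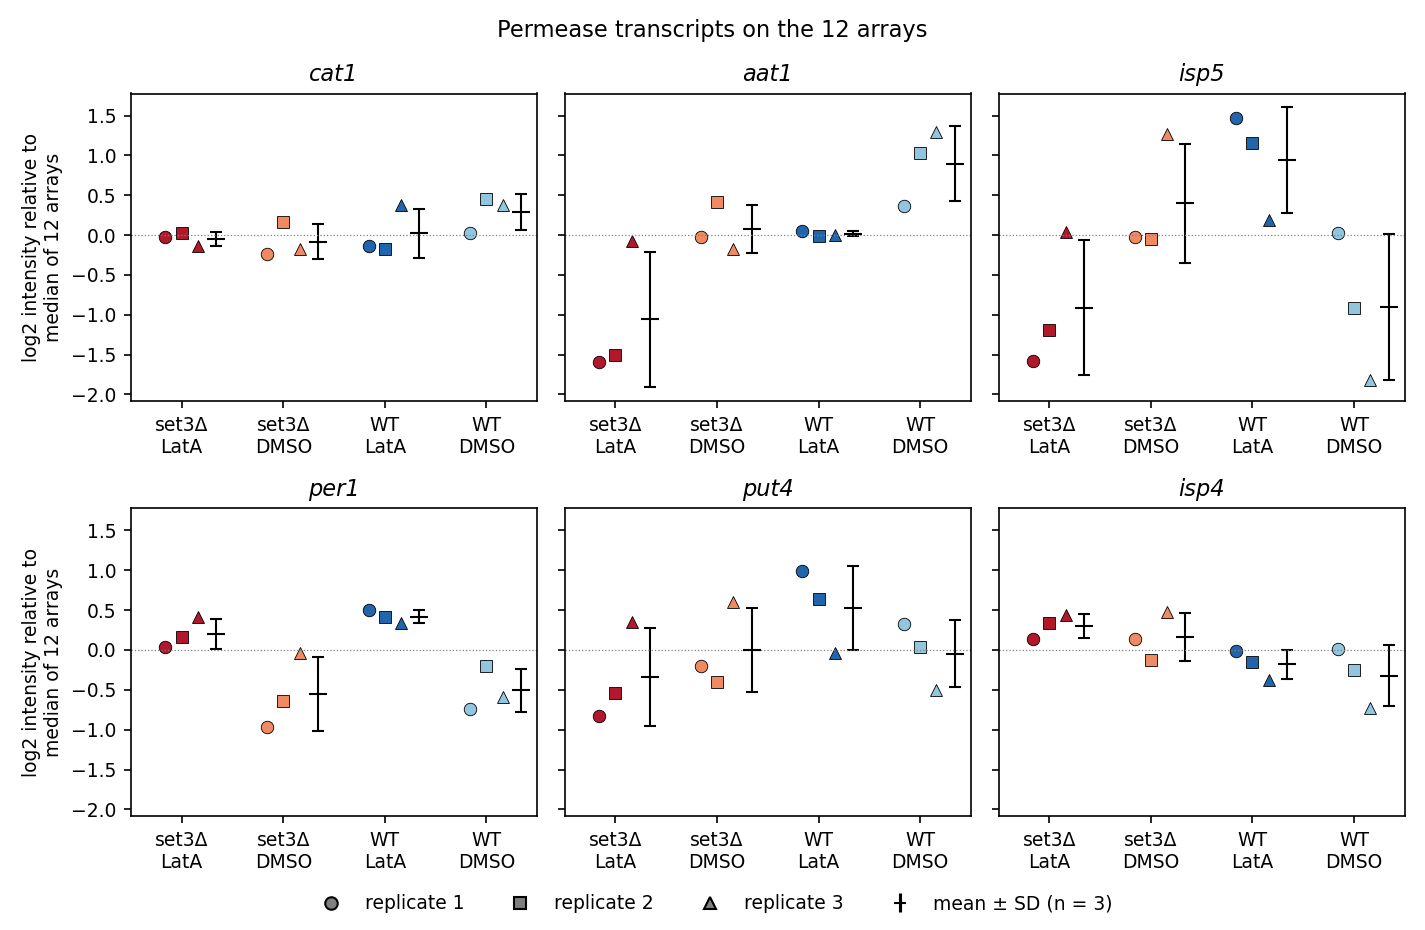
The 6 permease transcripts on each array, as log2 intensity relative to the median of the probe set over 12 arrays (vertical axis), by group (horizontal axis). Symbols are replicates and the bars are mean ± SD (n = 3). *isp5* and *aat1* cover the widest ranges, 3.28 and 2.88, and *cat1* the narrowest, 0.69.

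The amino acid permease gene *isp5* (SPAC1039.09), first found among genes induced during sexual differentiation in fission yeast, had the widest range of the permeases, 3.28 on the log2 scale from the lowest to the highest array. That range was at percentile 99.2 of all probe sets. In *set3Δ* with LatA, *isp5* read -1.58, -1.19 and 0.042 in replicates 1, 2 and 3, against -0.024, -0.043 and 1.26 in *set3Δ* with DMSO. The LatA arrays of the mutant lay low except replicate 3, which lay above 2 of the 3 DMSO arrays, so the groups overlapped. In wild type with LatA it read 1.47, 1.15 and 0.19, against 0.024, -0.91 and -1.82 with DMSO. Every wild-type LatA array was above every wild-type DMSO array, as for 60.2% of all probe sets in either direction.

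In wild type the *isp5* difference was 1.84 (SE 0.53, n = 3 arrays a group), adjusted p = 0.0334 in limma, with rank 35 of 4880 by size. In *set3Δ* it was -1.31 (SE 0.54, 95% interval -2.62 to 0.0037), adjusted p = 0.135 in limma, so a fall of that size was not separated from no change. Without replicate 3 of *set3Δ* with LatA the value was -1.78, with an adjusted p of 0.0936 in limma. The wild-type call did not hold in limma without replicate 2 of wild type with DMSO (1.83, adjusted p = 0.0885), replicate 3 of that group (1.38, adjusted p = 0.0659), replicate 1 of wild type with LatA (1.57, adjusted p = 0.0978) or replicate 2 of that group (1.73, adjusted p = 0.101).

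The mutant and wild type differed in *isp5* by -1.85 with LatA (SE 0.49), adjusted p = 0.0467 in limma, and by 1.30 with DMSO (SE 0.57, 95% interval -0.10 to 2.70), adjusted p = 0.234 in limma. All *set3Δ* LatA arrays lay below all wild-type LatA arrays, as for 40.8% of all probe sets in either direction, while the DMSO arrays of the strains overlapped for all 6 permeases (29.5% of all probe sets did not overlap). Without replicate 3 of *set3Δ* with LatA the LatA difference was -2.32, adjusted p = 0.0210 in limma. It missed the threshold in limma without replicate 1 or 2 of wild type with LatA (-1.58 and -1.74, adjusted p = 0.102 and 0.144) and without replicate 1 or 2 of *set3Δ* with LatA (-1.51 and -1.71, adjusted p = 0.112 and 0.132).

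The response of *isp5* to LatA in *set3Δ* minus that in wild type was -3.15 (SE 0.83, 95% interval -4.99 to -1.31). This was the third largest difference of responses by size among the 4880 probe sets. Its unadjusted p was 0.00342 and its adjusted p 0.134 in limma. Without replicate 1 of wild type with DMSO the value was -3.61 and passed, adjusted p = 0.0314 in limma. In the 17 alternative fits it ran from -3.62 to -2.69 and passed in 2, with an adjusted p of up to 0.271 in limma. A LatA response above 1 in wild type together with one below -1 in *set3Δ* was found for 3 probe sets, *isp5* among them, and the opposite combination for 0.

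**Figure D2:**
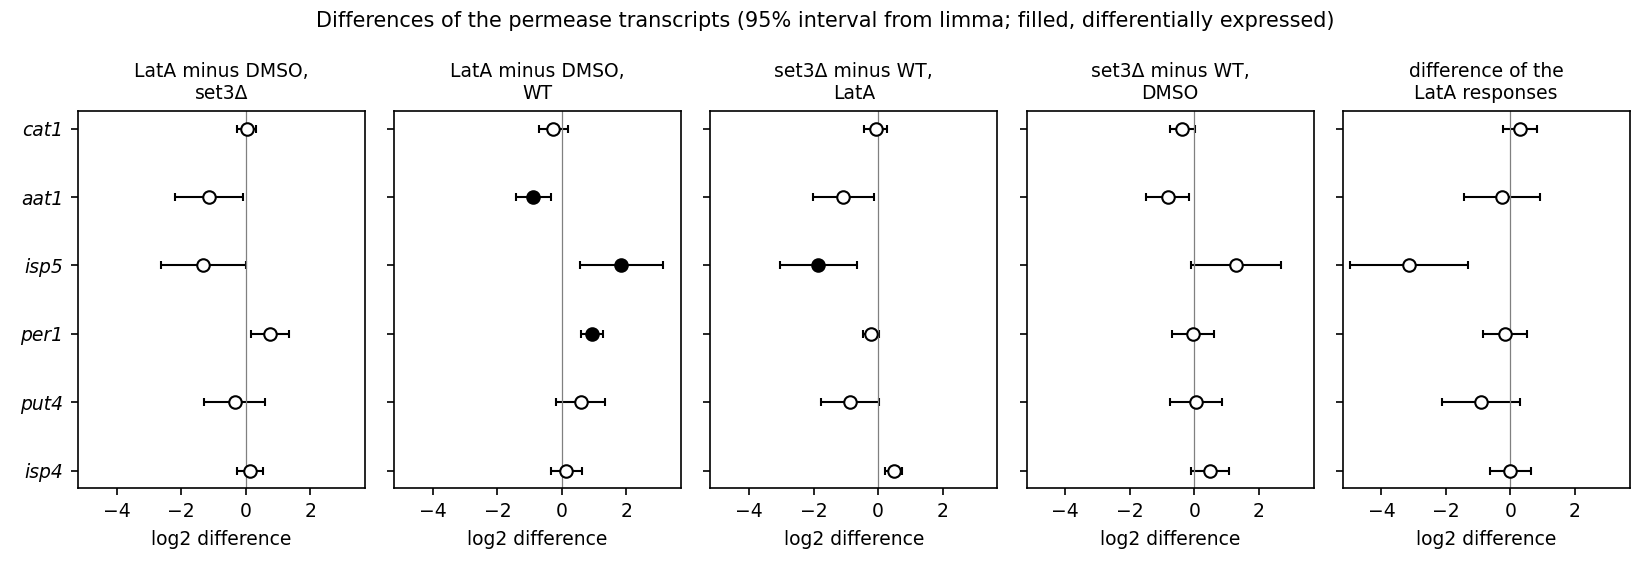
Log2 differences of the 6 permease transcripts (points) with 95% intervals from limma (bars), 1 panel for each of the 5 comparisons. Filled points were differentially expressed: *isp5*, *per1* and *aat1* for LatA in wild type, and *isp5* for *set3Δ* against wild type with LatA.

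The amino acid transporter gene *aat1* (SPBC359.03c) encodes a permease that moves from the Golgi to the cell surface upon nitrogen starvation. It read -1.59, -1.5 and -0.076 in *set3Δ* with LatA, against -0.018, 0.42 and -0.17 in *set3Δ* with DMSO. Replicates 1 and 2 of the mutant with LatA were the lowest of all 12 arrays, and replicate 3 lay within the DMSO arrays. In wild type with LatA it read 0.051, -0.0064 and 0.0064, against 0.37, 1.03 and 1.29 with DMSO. The wild-type LatA arrays were nearly equal and all below the DMSO arrays. In either direction 60.2% of all probe sets did not overlap between these groups.

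In wild type *aat1* fell by 0.88 on the log2 scale upon LatA (SE 0.23), adjusted p = 0.0232 in limma. This call was lost in limma without replicate 2 of wild type with DMSO (-0.81, adjusted p = 0.0764) and without replicate 1, 2 or 3 of wild type with LatA (-0.90, -0.87 and -0.88, adjusted p = 0.0619, 0.0730 and 0.0736). In *set3Δ* the difference was -1.13 (SE 0.43, 95% interval -2.18 to -0.081), adjusted p = 0.116 in limma. Without replicate 3 of *set3Δ* with LatA it was -1.62 and passed, adjusted p = 0.0275 in limma. In the 12 alternative fits it ran from -1.62 to -0.86 and passed in that 1 only, with an adjusted p of up to 0.294 in limma. The difference between the responses was -0.25, with a 95% interval of -1.43 to 0.93.

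Between the strains *aat1* differed by -1.07 with LatA (SE 0.39), adjusted p = 0.103 in limma. All *set3Δ* LatA arrays were below all wild-type LatA arrays for *aat1*, a separation that 40.8% of all probe sets had in either direction. Without replicate 3 of *set3Δ* with LatA the difference was -1.56, adjusted p = 0.000157 in limma. In the 12 alternative fits it ran from -1.56 to -0.81 and passed in that 1 only, with an adjusted p of up to 0.246 in limma. With DMSO it was -0.82 (SE 0.27), adjusted p = 0.186 in limma, where 2 of the 3 wild-type arrays were above every *set3Δ* array.

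The plasma membrane permease gene *per1* (SPAP7G5.06) was higher with LatA in both strains. It read 0.042, 0.16 and 0.41 in *set3Δ* with LatA, against -0.96, -0.64 and -0.042 in *set3Δ* with DMSO. In wild type with LatA it read 0.50, 0.41 and 0.34, against -0.73, -0.20 and -0.59 with DMSO. In each strain all LatA arrays were above all DMSO arrays, as for 46.7% of all probe sets in *set3Δ* and 60.2% in wild type, in either direction.

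The *per1* response was 0.93 in wild type (SE 0.14), adjusted p = 0.00574 in limma, and it passed without any 1 array. In *set3Δ* it was 0.75 (SE 0.24), adjusted p = 0.0847 in limma. Without replicate 3 of *set3Δ* with DMSO it was 1.01 and passed, adjusted p = 0.0282 in limma. In the 12 alternative fits it ran from 0.55 to 1.01 and passed in 2, with an adjusted p of up to 0.210 in limma. The responses differed by -0.17 between the strains (95% interval -0.84 to 0.50), an interval that still holds a difference of nearly the size of the response. Between the strains *per1* differed by -0.21 with LatA (95% interval -0.45 to 0.028) and by -0.041 with DMSO (95% interval -0.69 to 0.61).

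The gene *put4* (SPAC869.10c) is named after the proline permease of budding yeast. It read -0.82, -0.54 and 0.36 in *set3Δ* with LatA, against -0.21, -0.40 and 0.60 in *set3Δ* with DMSO. In wild type with LatA it read 1.00, 0.64 and -0.038, against 0.32, 0.038 and -0.51 with DMSO. The groups overlapped in each of the 4 comparisons of 2 groups, and *put4* passed in none of the 5 comparisons. Its LatA response was 0.58 in wild type (SE 0.32, adjusted p = 0.177 in limma) and -0.34 in *set3Δ* (SE 0.39, adjusted p = 0.551 in limma). With array weights the wild-type response was 0.63 and passed, adjusted p = 0.0384 in limma. That was the only pass among its 12 alternative fits, where the adjusted p reached 0.419 in limma. With LatA the strains differed by -0.87 (95% interval -1.76 to 0.022), adjusted p = 0.149 in limma, and without replicate 3 of *set3Δ* with LatA by -1.21, adjusted p = 0.0570 in limma.

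The cationic amino acid transporter gene *cat1* (SPAC869.11), whose product takes up lysine and arginine in fission yeast, varied least. It lay between -0.24 and 0.46 over the 12 arrays, a range of 0.69 at percentile 62.6 of all probe sets. Its means were -0.048 ± 0.085 in *set3Δ* with LatA, -0.082 ± 0.22 in *set3Δ* with DMSO, 0.022 ± 0.31 in wild type with LatA and 0.29 ± 0.23 in wild type with DMSO (SD, n = 3 each). *cat1* passed in none of the 5 comparisons. Its largest difference was -0.37 between *set3Δ* and wild type with DMSO (95% interval -0.76 to 0.022), adjusted p = 0.230 in limma.

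The oligopeptide transporter gene *isp4* (SPBC29B5.02c), the peptide transporter with a probe set, was higher in *set3Δ* by a small margin with LatA. It read 0.13, 0.33 and 0.44 in *set3Δ* with LatA, against -0.017, -0.16 and -0.37 in wild type with LatA. These groups did not overlap, as for 40.8% of all probe sets in either direction. The difference was 0.48 (SE 0.11, 1.40-fold), adjusted p = 0.0350 in limma, which passed on p but not on the fold limit of 1.5. Without replicate 3 of *set3Δ* with LatA it was 0.42 and missed on p as well, adjusted p = 0.0806 in limma. In the 12 alternative fits the adjusted p reached 0.149 in limma. With DMSO *isp4* read 0.14, -0.13 and 0.48 in *set3Δ*, against 0.017, -0.25 and -0.73 in wild type. The difference was again 0.48, but with an SE of 0.24 and an adjusted p of 0.264 in limma. LatA moved *isp4* by 0.14 in either strain (95% interval -0.27 to 0.55 in *set3Δ* and -0.35 to 0.62 in wild type). The study holds *isp4* in its lists of stress response genes, among those lowered by stress, and *per1* in its list of cytokinesis genes.

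**Figure D3:**
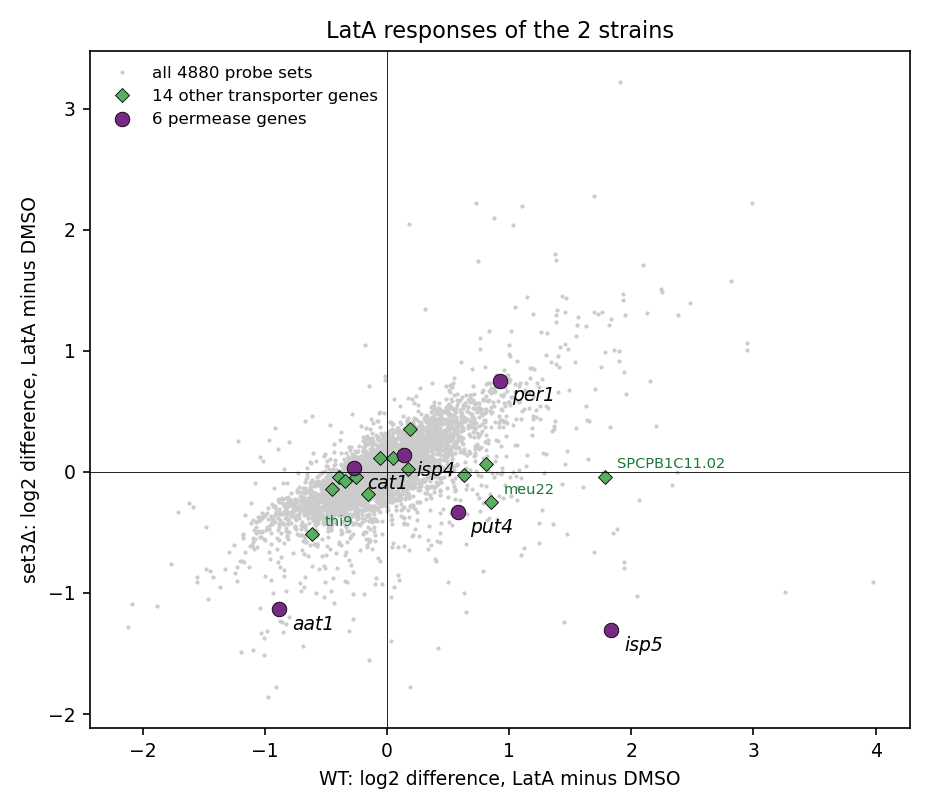
LatA response of *set3Δ* (vertical axis, log2 difference of LatA minus DMSO) against that of wild type (horizontal axis) for all 4880 probe sets (grey), 14 other transporter genes (green) and 6 permeases (purple). *isp5* lies at 1.84 in wild type and -1.31 in *set3Δ*, while *per1* is positive and *aat1* negative in both strains.

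The permeases did not vary as 1 set over the arrays. *isp5* and *put4* had a Pearson correlation of 0.88 and a Spearman correlation of 0.90 over the 12 arrays, and a Pearson correlation of 0.84 over the 10 arrays left without replicate 3 of wild type with DMSO and replicate 1 of *set3Δ* with LatA, those farthest from the *isp5* median. After the group means were taken away, the deviations of *isp5* correlated at 0.97 with those of *put4* and at 0.90 with those of *isp4*. In wild type with DMSO, for example, all 3 of these transcripts were highest in replicate 1 and lowest in replicate 3. The deviations of *cat1* ran the other way, at -0.68 with *isp5*, -0.67 with *put4* and -0.67 with *isp4*. Those of *aat1* correlated at 0.080 with *isp5*. These are descriptions of 12 arrays that share 4 groups and a common normalization, not tests.

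**Figure D4:**
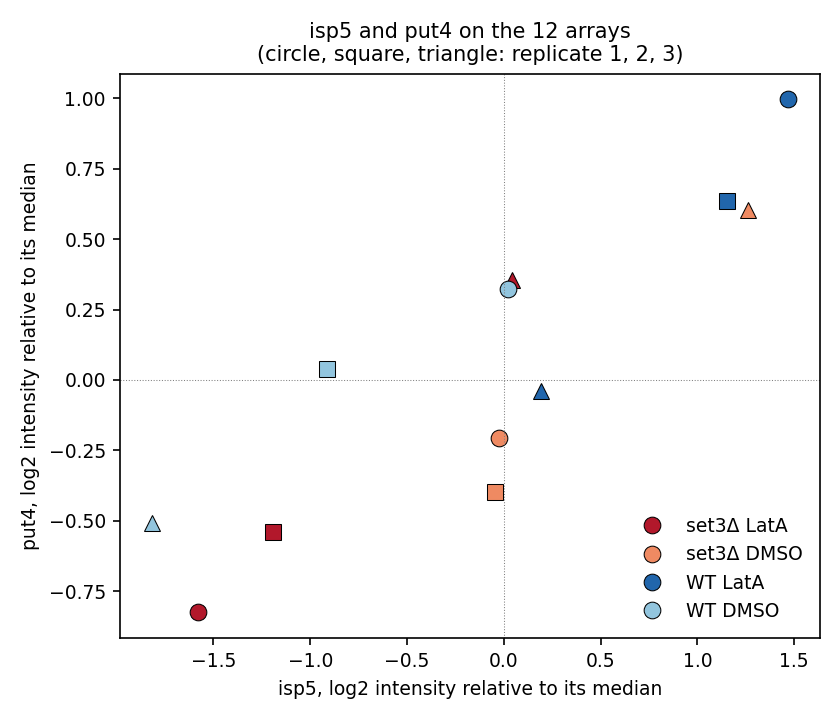
*put4* (vertical axis) against *isp5* (horizontal axis) on the 12 arrays, each as log2 intensity relative to its median, with colours for groups and symbols for replicates. Wild type with LatA lies to the upper right apart from replicate 3, and replicates 1 and 2 of *set3Δ* with LatA to the lower left (r = 0.88).

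Among genes with 1 name, those whose pattern over the 12 arrays was most like that of *aat1* were the hexose transporter gene *ght3* (r = 0.96) and the RNA-binding protein gene *rnc1* (r = 0.93). *ght3* averaged -0.75 ± 0.36 in *set3Δ* with LatA, 0.031 ± 0.11 in *set3Δ* with DMSO, -0.0036 ± 0.14 in wild type with LatA and 0.51 ± 0.24 in wild type with DMSO (SD, n = 3 each). For *isp5* they were the ribosomal protein gene *rps13* (r = 0.96), whose values lay between -0.033 and 0.026 only, and SPAC1039.07c (r = 0.85). For *per1* they were SPAC11D3.16c and SPCC663.08c (both r = 0.92).

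SPAC1039.07c lies near *isp5* in the gene order of chromosome I, and so do *cat1* and *put4*. *cat1* and *put4* are neighbours with 0 coding genes between them, and 8 coding genes lie between *isp5* and *cat1*. The 3 genes stand 36 (*isp5*), 27 (*cat1*) and 26 (*put4*) coding genes from the end of chromosome I, which has 2333 coding genes in the reference. *aat1* stands 34 coding genes from an end of chromosome II (1865 coding genes), and *isp4* (621) and *per1* (747) lie far from the ends.

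The genes around *isp5* were looked at after the values had been seen, so they are described without a test of the region. Of the 10 coding genes on either side, 10 of 20 had a named probe set, the permeases *cat1* and *put4* among them. In wild type 9 of these 10 were higher with LatA by value, as were 2193 of all 4880 probe sets. Of the 10, 4 were differentially expressed, all higher, where 14.5% of all probe sets passed. The median response of the 10 was 0.58 in wild type. In *set3Δ* their median response was -0.086, and 0 of the 10 passed in limma, where 3.61% of all probe sets passed.

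With LatA all 10 genes around *isp5* were lower in *set3Δ* than in wild type by value, as were 2183 of all 4880 probe sets. The median difference of the 10 was -0.88, and 5 were differentially expressed, where 3.16% of all probe sets passed. With DMSO the median was 0.048 and 0 of the 10 passed in limma, where 0.123% of all probe sets passed. The neighbours were not alike. *mmf2*, next to *isp5*, read -0.92, -0.85 and 0.15 in *set3Δ* with LatA, against 0.91, 1.18 and 1.36 in wild type with LatA, a difference of -1.69 (SE 0.29, adjusted p = 0.0168 in limma). This *mmf2* call was lost without replicate 2 of *set3Δ* with LatA (adjusted p = 0.0629 in limma) or replicate 2 of wild type with LatA (adjusted p = 0.0704 in limma). SPAC922.03 read -0.067, -0.14 and 0.087 in *set3Δ* with LatA, against 1.07, 0.92 and 1.01 in wild type with LatA, a difference of -1.04 (SE 0.073, adjusted p = 0.00129 in limma). SPAC1039.07c, SPAC1039.01 and SPAC1039.02 were lower as well (-0.90, -1.06 and -1.07). The SPAC1039.02 call was lost without replicate 1 or 2 of either strain with LatA (adjusted p = 0.0623 to 0.0988 in limma). SPAC922.04, between these genes and *cat1*, differed by -0.016, and *cat1* itself by -0.069.

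The response of SPAC922.03 to LatA was 1.10 in wild type (SE 0.084) and -0.047 in *set3Δ* (SE 0.11). The difference of the responses was -1.15, adjusted p = 0.0308 in limma, 1 of 3 probe sets that passed this test. It missed the threshold in 8 of the 12 fits that left out 1 array, with adjusted p-values up to 0.148 in limma. The number of neighbours called depended on single arrays as well: 2 to 5 with any 1 array left out, for LatA in wild type and for *set3Δ* against wild type with LatA.

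**Figure D5:**
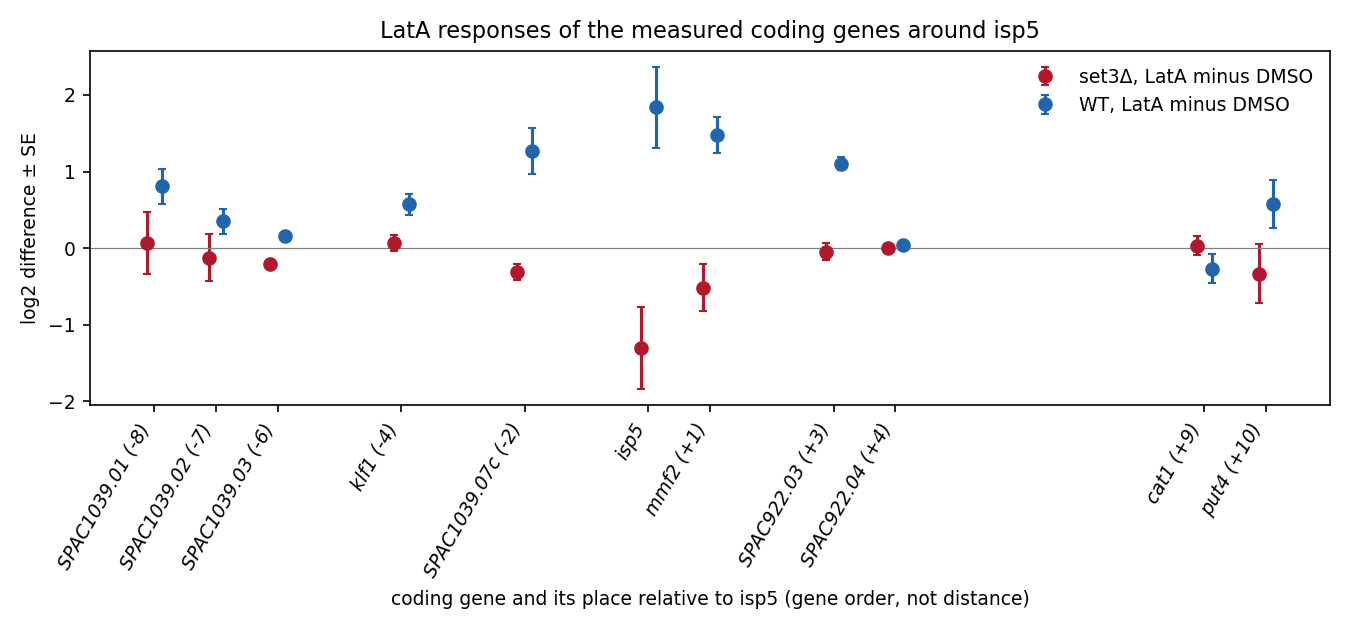
LatA response (vertical axis, log2 difference of LatA minus DMSO, bars SE) of the measured coding genes by their place relative to *isp5* (horizontal axis, gene order and not distance), in *set3Δ* (red) and wild type (blue). The blue points stand above the red ones for all genes except *cat1*.

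The same windows were drawn around the other permeases. Around *aat1*, 12 genes were measured and 4 were lower in *set3Δ* than in wild type with LatA, with 0 higher, where 2.15% of all probe sets were lower. Around *per1*, 1 of 16 measured genes was lower in that comparison, and around *isp4* 0 of 16 passed in limma, where 3.16% of all probe sets passed in either direction. The windows of *cat1* and *put4* overlap that of *isp5* and hold it.

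Of the 14 other amino acid and peptide transporter genes measured, 3 rose and 1 fell with LatA in wild type, which is 28.6% where 14.5% of all probe sets passed. Their median difference was -0.0029, against -0.034 over all probe sets. The permease gene SPCPB1C11.02 rose by 1.78 (SE 0.52, adjusted p = 0.0351 in limma). It read 0.034, 0.12 and 0.13 in wild type with LatA, against -0.65, -1.54 and -2.87 with DMSO. SPAC1039.01, from the neighbourhood of *isp5*, rose by 0.81 and *agp3*, named after a permease of budding yeast, by 0.63. *thi9*, which encodes a thiamine transporter of the amino acid permease family, fell by 0.62. *meu22* stood at 0.85 with an adjusted p of 0.0624 in limma. SPCPB1C11.02 missed the threshold without replicate 2 of wild type with DMSO or any array of wild type with LatA (adjusted p = 0.0818 to 0.0994 in limma). *agp3* fell below the fold limit without replicate 3 of wild type with LatA (0.52), and *thi9* without replicate 3 of wild type with DMSO (-0.44). *thi9* missed on p without any 1 array of wild type with LatA (adjusted p = 0.0603 to 0.0773 in limma), and SPAC1039.01 without replicate 2 or 3 of wild type with DMSO or replicate 1 or 2 of wild type with LatA (adjusted p = 0.0504 to 0.0922 in limma).

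In *set3Δ* 0 of the 14 passed for LatA in limma, where 3.61% of all probe sets passed. At an unadjusted p below 0.05 in limma there were 3 of the 14 and 1805 of all 4880 probe sets. *thi9* fell in *set3Δ* as well (-0.51, SE 0.054, adjusted p = 0.0184 in limma), short of the fold limit. Its difference of the LatA responses was 0.10 (adjusted p = 0.755 in limma). Between the strains with LatA, SPAC1039.01 (-1.06, adjusted p = 0.0483 in limma) and *agp3* (-0.90, adjusted p = 0.00561 in limma) were lower in *set3Δ*, and 0 were higher. That is 14.3% of the 14, where 3.16% of all probe sets passed, 1% higher and 2.15% lower. *agp3* read -0.25, -0.15 and -0.052 in *set3Δ* with LatA, against 0.64, 0.64 and 0.98 in wild type with LatA, and its call held without any 1 array. That of SPAC1039.01 held only without replicate 3 of *set3Δ* with LatA, and was lost without any other single array (adjusted p = 0.0542 to 0.138 in limma). The arginine permease gene *can1* differed by 0.38 between the strains with LatA (*set3Δ* above wild type, adjusted p = 0.0132 in limma), below the fold limit. *meu22* differed by -0.43 (adjusted p = 0.0224 in limma), also below that limit. With no fold limit 4 of the 14 were lower and 2 higher in *set3Δ* with LatA, where 889 of all 4880 probe sets passed (411 lower and 478 higher). With DMSO 0 of the 14 passed in limma, where 0.123% of all probe sets passed. At an unadjusted p below 0.05 in limma there were 5 of the 14 and 1111 of all 4880 probe sets. SPCPB1C11.02 had the largest difference with DMSO, 1.67 (SE 0.57, adjusted p = 0.191 in limma). For the difference of the LatA responses 0 passed in limma, where 0.0615% of all probe sets passed. An unadjusted p below 0.05 in limma was reached by 4 of the 14 and by 986 of all 4880 probe sets.

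SPBC1652.02, a further amino acid transporter gene, is not *aat1*, which the platform's annotation pairs with SPBC359.03c. It was in none of the lists and is given after its values were seen. It read 0.12, -0.058 and -0.022 in *set3Δ* with LatA, against -0.015, 0.40 and 0.053 in *set3Δ* with DMSO. In wild type with LatA it read -0.50, -0.91 and -0.86, against 0.015, 0.33 and 0.15 with DMSO. The 3 wild-type LatA arrays were thus the lowest of all. LatA lowered it in wild type (-0.92, SE 0.13, adjusted p = 0.00537 in limma), with a value of -0.13 in *set3Δ* (adjusted p = 0.457 in limma). With LatA it was 0.77 higher in *set3Δ* than in wild type (SE 0.12, adjusted p = 0.0115 in limma), and both calls held without any 1 array. The difference of the responses was 0.79 (SE 0.19), adjusted p = 0.125 in limma.

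Among the listed regulators of amino acid uptake, the arrestin gene *any1* had no probe set under its name. The 10 measured included TOR signalling genes, the trafficking gene *pub1* and the GATA factor gene *gaf1*. Of these 10, 1 rose with LatA in wild type and 0 fell, which is 10% against 14.5% of all probe sets. It was *isp7*, which encodes an oxygenase that regulates amino acid uptake in fission yeast, with a rise of 1.14 (SE 0.30, adjusted p = 0.0252 in limma). *isp7* read 0.25, 0.079 and 0.11 in wild type with LatA, against -0.33, -1.05 and -1.59 with DMSO. Its call was lost without replicate 2 of wild type with DMSO or any array of wild type with LatA (adjusted p = 0.0694 to 0.0757 in limma). With no fold limit 5 of the 10 passed in limma, as did 2099 of all 4880 probe sets. Beside *isp7* these were 4 that passed on p in limma but not on the fold limit. Of these 4 the kinase genes *gad8* (0.57, adjusted p = 0.00549) and *tor1* (0.34, adjusted p = 0.0348) and the GTPase gene *rhb1* (0.27, adjusted p = 0.0385) were higher, and *tsc2* was lower (-0.20, adjusted p = 0.0215). Its partner *tsc1* passed on neither (0.38, adjusted p = 0.0628). In the other 4 comparisons 0 of the 10 passed in limma. The shares of all probe sets that passed there were 3.61% (LatA in *set3Δ*), 3.16% (*set3Δ* against wild type with LatA), 0.123% (with DMSO) and 0.0615% (difference of the responses). At an unadjusted p below 0.05 in limma there were 3, 3, 1 and 0 of the 10 in the same order. Over all 4880 probe sets there were 1805, 1727, 1111 and 986. For LatA in *set3Δ*, *gad8* passed on p alone (0.36, adjusted p = 0.0293 in limma). *isp7* stood at 0.74 there (SE 0.40, adjusted p = 0.223 in limma). The largest difference with LatA between the strains was 0.24 (*gad8*).

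Of 8 genes known for induction by nitrogen starvation, *isp6*, a vacuolar protease gene, alone rose with LatA in wild type, by 1.23 (SE 0.18, adjusted p = 0.00529 in limma), which makes 12.5% of the 8 against 14.5% of all probe sets. It read 0.20, 0.19 and 0.34 with LatA, against -0.58, -1.15 and -1.23 with DMSO. The *isp6* response in *set3Δ* was 0.73 (SE 0.21, adjusted p = 0.0676 in limma). In *set3Δ*, *mei2*, which encodes the RNA-binding protein that starts meiosis, fell by 1.77 (SE 0.25, adjusted p = 0.0223 in limma), 1 of 8 where 3.61% of all probe sets passed. Between the strains with LatA *mei2* was lower in *set3Δ* (-1.63, SE 0.12, adjusted p = 0.00164 in limma), with -1.58, -1.55 and -1.36 in *set3Δ* and 0.071, -0.057 and 0.38 in wild type. It was again 1 of 8, where 3.16% of all probe sets passed. The first of these *mei2* calls was lost without any 1 array of *set3Δ* with LatA (adjusted p = 0.0509 to 0.114 in limma). The ammonium transporter genes *amt1*, *amt2* and *amt3* passed in none of the 5 comparisons, with LatA differences in wild type of 0.062, -0.18 and -0.33. *ste11* passed in none either, with a LatA difference in wild type of 0.82 (SE 0.43, adjusted p = 0.163 in limma). Its LatA difference in *set3Δ* was -0.40 (adjusted p = 0.0305 in limma), short of the fold limit. Between the strains with LatA it was also -0.40 (adjusted p = 0.0183 in limma), again short of that limit. With DMSO, and for the difference of the responses, 0 of the 8 passed in limma, where 0.123% and 0.0615% of all probe sets passed. An unadjusted p below 0.05 in limma was reached by 1 and 3 of the 8, and by 1111 and 986 of all 4880 probe sets.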

How the data were processed

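The authors hybridized total RNA and deposited log2 intensities after RMA in GeneSpring GX 10.0.1. The values show that every probe set was also set to a median of 0 across arrays (largest absolute median 7e-07), so signal over background could not be judged and no dim probe set was left out. With 3 arrays a group, precision rests on that number. The files name no genome build.

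Of 4880 probe sets 3917 were named with 1 gene, 2865 from the platform's annotation and 1052 from the study's supplementary table, read in part; 19 had several names and 944 none. Gene order comes from the ASM294v3 reference annotation.

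Groups were compared with limma 3.58.1 (R 4.3.3), lmFit and eBayes, on the 6 arrays of a comparison, or all 12 for the difference of the LatA responses. P-values were adjusted by Benjamini-Hochberg over all probe sets, with limits of 0.05 and 1.5-fold taken from the study's methods. All members are named. Of each list only some genes are named, not in strict order of the size of their differences. For each member that passed, the 2 genes most correlated with it are named. The genes around *isp5* and SPBC1652.02 were added after seeing values, as were their alternatives. *aat1* was matched by its symbol (SPBC359.03c), and SPBC1652.02, noted in error as its fallback identifier, was not used for it. Other transporter genes numbered 22 as listed, of which 14 were used. The members and lists were chosen with earlier results of these data and the group values printed in the study's supplementary table known. The fit was tested on simulated data. Alternatives were a fit of all 12 arrays, the replicate number as a block, unmoderated variance, array weights, median centring, other probe sets and fold limits, and each array left out. Figures were drawn with matplotlib 3.10.9 (Python 3.11.15).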

Additional observations from a re-analysis of the deposited data

Results flagged for a closer look

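SPAC922.03, near *isp5* with 2 coding genes between them, responded to LatA by -0.047 on the log2 scale in *set3Δ* and by 1.10 in wild type. The limma test of the difference between the strains' responses passed (-1.15, SE 0.15, adjusted p = 0.0308, n = 3 arrays a group), which is why it is given here. All 3 wild-type LatA arrays were above all other arrays.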

How the results depend on the processing

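Other settings changed how many of the 6 permeases passed. For LatA in wild type the count was 3, and 1 with each gene's own variance or a fold limit of 2, 2 when all 12 arrays shared the spread, 4 with array weights (*put4* joined), and 1 to 3 with 1 array left out. For LatA in *set3Δ* it was 0, and 1 when all 12 arrays shared the spread, and 0 to 1 with 1 array left out. For *set3Δ* against wild type with DMSO it was 0, and 1 with array weights. For *set3Δ* against wild type with LatA it was 1, and 0 when all 12 arrays shared the spread, with the replicate block or with each gene's own variance, 2 with no fold limit, and 0 to 2 with 1 array left out. For the difference of the responses it was 0, and 2 with array weights (*isp5* -3.34, adjusted p = 0.0126, and *cat1* 0.60, adjusted p = 0.0436, in limma), and 0 to 1 with 1 array left out. The weights did not fully converge in 3 fits. *per1* in wild type passed in 12 of 12 alternatives (adjusted p = 0.00137 to 0.0297 in limma).

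Whether replicate numbers pair the arrays was not settled. Deviations of same-numbered arrays correlated above 0.1 in 7 of 18 pairs (-0.50 to 0.56, median 0.021). Those of different numbers did in 8 of 36 (-0.70 to 0.55, median -0.042). Between *set3Δ* and wild type with DMSO the correlations were 0.44, 0.56 and -0.50 for replicates 1, 2 and 3. With the replicate block, *isp5* between the strains with LatA had an adjusted p of 0.0927 in limma, and *put4* for LatA in wild type passed on p (0.58, SE 0.070, adjusted p = 0.0210) but not on the fold limit.

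Values near 0 changed sign. With array weights *cat1* with LatA between the strains was 0.048, and for the difference of the responses *isp4* was -0.00079 and *per1* 0.073. With arrays centred on their median *isp4* was -0.013 for that difference. With 1 array left out, ranges that crossed 0 were -0.74 to 0.017 (*aat1*), -0.17 to 0.21 (*isp4*) and -0.38 to 0.082 (*per1*) for the difference of the responses, -0.044 to 0.16 (*cat1*) and -0.0065 to 0.30 (*isp4*) for LatA in *set3Δ*, -0.066 to 0.31 (*isp4*) for LatA in wild type, -0.17 to 0.11 (*cat1*) between the strains with LatA, and -0.29 to 0.17 (*per1*) and -0.25 to 0.25 (*put4*) with DMSO.

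Over all probe sets the count was 176 for LatA in *set3Δ* (0 with the replicate block, 607 with no fold limit), 708 for LatA in wild type (201 with a fold limit of 2, 2099 with none), 154 between the strains with LatA (66 and 889 with the same limits), 6 with DMSO (3 with each gene's own variance, 134 with array weights) and 3 for the difference of the responses (0 and 324 with the same settings). With 1 array left out these counts ran from 0 up to 218, from 558 up to 990, from 93 up to 174 (94 without replicate 2 of wild type with LatA and 93 without replicate 2 of *set3Δ* with LatA), from 3 up to 6 (3 without replicate 2 of wild type with DMSO) and from 0 up to 260, in the same order. The cause of these changes was not tested.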
